A study of Mus musculus with 12 samples.

Results

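The Nat8 family is a group of N-acetyltransferases encoded side by side in the mouse genome. Its genes were chosen here by name, as the array probes called Nat8, Nat8f5 or Cml1 to Cml5, which gave 4 genes out of 22143 measured. The 4 are Nat8, Nat8f5 (named Cml5 on the array), Nat8f1 (Cml1) and Nat8f2 (Cml2), and each had 1 probe with 1 spot. Of the 7 names searched, 3 (Cml3, Cml4 and Nat8f5) were on no probe as such. Cml4 is an older synonym of Nat8 in the RefSeq gene table, and Cml3 is listed there as a synonym of Nat8f3, Nat8f6 and Nat8f7. The family came to attention because Nat8f5 had been seen among the large rises of the 6-week knockout. Its values at 6 weeks, and those of the age comparisons that share those arrays, are therefore given as a description without p-values. Where members that passed the threshold there are counted, the share of all genes stands beside them and nothing is read from the count.

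RNA came from whole livers of BALB/c mice that were untreated in all groups. The groups were interleukin-18 knockout at 6 weeks (KO 6 weeks), wild type at 6 weeks (WT 6 weeks), knockout at 12 weeks (KO 12 weeks) and wild type at 12 weeks (WT 12 weeks). Each group had 3 biological replicates, 1 array each. The labels give neither the sex of the animals nor how the knockout allele was made.

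Family members are small proteins anchored in the membrane of the endoplasmic reticulum, with an acetyltransferase domain that takes acetyl groups from acetyl-CoA. Human NAT8 acetylates cysteine S-conjugates, the closing step by which glutathione conjugates of foreign or reactive compounds become mercapturic acids for excretion in urine. NAT8 and its human relative NAT8B have also been described as acetylating lysines of proteins inside the endoplasmic reticulum. NAT8 is best known from kidney, and liver is the organ where most of the glutathione conjugates arise.

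The 4 member probes lie on the minus strand of chromosome 6 within 92.97 kb (mm9, the build of the array files). In order along the chromosome they are Nat8f5 at chr6:85767345-85767404, Nat8 at chr6:85780428-85780487, Nat8f2 at chr6:85816376-85816435 and Nat8f1 at chr6:85860251-85860310. The files do not say in which exon or UTR a probe lies. Members of a recently duplicated family can share transcript sequence, so the first 30 of the 60 bases of each probe are shown to let the 4 detectors be told apart.
Nat8f5 probe: tatgggattccaaaggacaggaaaatactc
Nat8 probe: cccttctgctcaaaaatatgagttgtgatc
Nat8f2 probe: ggcataagagacttccagaattgttaagga
Nat8f1 probe: tgtacaattcaattaaagtactccttccct
Over their full length, no pair of member probes shared a run longer than 9 bases, and 0 other probes on the array shared a run of 20 bases with any of them. Binding of a probe to the transcript of another family member was not tested.

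A level here is log2 of the background-corrected spot signal relative to the array's 75th percentile, so that 0 is the 75th percentile and 1 unit is a doubling. Apart from the summed levels of kidney and hepatocyte markers, levels were compared between groups for each gene and not between genes. All 4 members were well above background on all 12 arrays. The 75th percentile ran from 349 to 420 in scanner units and 50.1% to 57.7% of spots were well above background. The number of arrays limits the precision. The Il18 probe had levels of -0.37 to 0.04 on the 6 knockout arrays, against 2.15 to 2.49 on the 6 wild type arrays, in the direction the labels give. The labels do not say whether that probe lies in the deleted sequence.

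The arrays lay on 2 slides. Slide 1 held the 3 arrays of WT 6 weeks and replicate 1 of WT 12 weeks, and slide 2 held the other 8. At 6 weeks slide and genotype therefore cannot be told apart without the 12-week arrays, and values within a slide are given beside the main results. In whole liver, a change in the share of a cell type and a change of RNA per cell cannot be told apart. A gene counted as measured where every array of some group showed it well above background, which held for all 8 hepatocyte markers examined and for 5 of 10 kidney markers. The summed level of the 10 kidney markers was at most 1.88 times the 75th percentile on any array, against at least 4223 for the hepatocyte markers. Slc34a1, Slc22a6 and Miox were well above background on all 12 arrays, Nphs1 on 10, Cdh16 on 2, Slc12a1 on 1, and Umod, Cubn and Kap on 0. Lrp2, an endocytic receptor of the kidney tubule, was well above background on 0 arrays of WT 6 weeks and on all 9 others. Its mean level was -2.83 in KO 6 weeks, against -5.96 in WT 6 weeks, and -2.52 in KO 12 weeks, against -2.77 in WT 12 weeks. It was the 1 kidney marker called higher at 6 weeks, beside 11.7% of all genes, and with age in wild type, where 9.04% of all genes were called. Lrp2 could be tested only because of the groups other than WT 6 weeks, so these calls follow in part from the filter. At 12 weeks 0 kidney markers were called between genotypes by limma, where 8.20% of all genes were, with 1 at an unadjusted p under 0.05. The other 4 measured kidney markers had differences of -0.49 to -0.21 at 6 weeks.

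**Figure D1:**
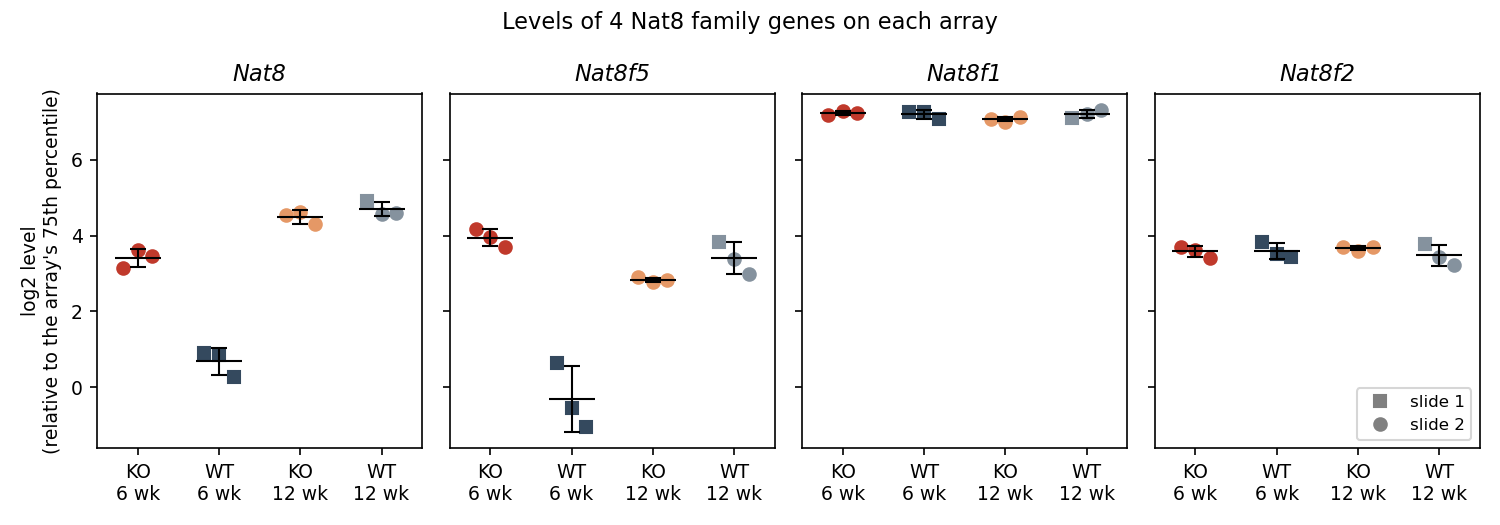
Level of each of the 4 family genes on each of the 12 arrays (y axis, log2 relative to the array's 75th percentile), by group on the x axis. Points are arrays, squares on slide 1 and circles on slide 2, and black bars are the group mean ± SD of 3 arrays. Nat8 and Nat8f5 are low on the WT 6 weeks arrays and high on the other 9, while Nat8f1 and Nat8f2 lie at one height in all groups.

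Nat8 and Nat8f5 were low in the young wild type liver and high in the other 3 groups, whereas Nat8f1 and Nat8f2 hardly moved. Across the 12 arrays the level spanned 4.64 log2 units for Nat8 and 5.21 for Nat8f5, but 0.62 for Nat8f2 and 0.31 for Nat8f1. The 4 neighbouring genes of 1 family thus fell into a variable pair and a steady pair. The variable pair are next to each other among the member probes, 13.02 kb apart, and Nat8f2 and Nat8f1 follow.

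Nat8f5, also known as camello-like 5, had levels of 4.16, 3.96 and 3.70 in KO 6 weeks, against 0.64, -0.55 and -1.05 in WT 6 weeks. Its levels were 2.89, 2.79 and 2.84 in KO 12 weeks, against 3.84, 3.38 and 3.00 in WT 12 weeks. The lowest of the 9 arrays outside WT 6 weeks was at 2.79, well clear of the highest WT 6 weeks array at 0.64. The group means were 3.94 ± 0.23 in KO 6 weeks and -0.32 ± 0.87 in WT 6 weeks, and 2.84 ± 0.05 in KO 12 weeks and 3.41 ± 0.42 in WT 12 weeks (SD, n = 3 each). From low to high the order was WT 6 weeks, KO 12 weeks, WT 12 weeks and KO 6 weeks. KO 6 weeks and WT 12 weeks overlapped, and the other neighbours in that order did not, although KO 12 weeks and WT 12 weeks were only 0.10 apart at their closest arrays. The spread among the WT 6 weeks arrays was the widest of the 4 groups.

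Nat8, the gene of the cysteine-conjugate acetyltransferase, had levels of 3.15, 3.61 and 3.47 in KO 6 weeks, against 0.91, 0.85 and 0.28 in WT 6 weeks. Its levels were 4.54, 4.63 and 4.30 in KO 12 weeks, against 4.92, 4.58 and 4.59 in WT 12 weeks. The group means were 3.41 ± 0.24 in KO 6 weeks and 0.68 ± 0.35 in WT 6 weeks, and 4.49 ± 0.17 in KO 12 weeks and 4.70 ± 0.19 in WT 12 weeks (SD, n = 3 each). From low to high the order was WT 6 weeks, KO 6 weeks, KO 12 weeks and WT 12 weeks. Only the 2 groups of 12 weeks overlapped. The young knockout liver thus lay between the young wild type and both adult groups for Nat8. For Nat8f5 it overlapped WT 12 weeks and lay above KO 12 weeks.

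Nat8f1, or camello-like 1, had levels of 7.20, 7.28 and 7.23 in KO 6 weeks, against 7.27, 7.25 and 7.07 in WT 6 weeks. It had 7.08, 7.01 and 7.13 in KO 12 weeks, against 7.11, 7.21 and 7.33 in WT 12 weeks. The 4 group means lay within 0.16 log2 units, and within each age the genotypes overlapped. Nat8f2, or camello-like 2, had levels of 3.71, 3.62 and 3.42 in KO 6 weeks, against 3.84, 3.51 and 3.44 in WT 6 weeks. It had 3.71, 3.60 and 3.69 in KO 12 weeks, against 3.78, 3.44 and 3.22 in WT 12 weeks. Its group means lay within 0.19 log2 units and the groups overlapped at both ages.

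The comparison of genotypes at 12 weeks is the one that did not bring the family to attention, and it was tested. Differences are knockout minus wild type from 1 limma fit over all genes, ± its standard error, with p adjusted by the Benjamini-Hochberg method over all 22143 genes and a threshold of 0.05. None of the 4 members passed with limma, where 8.20% of all genes did, and 0 of the 4 had an unadjusted p under 0.05. Nat8f5 differed by -0.57 ± 0.36 (95% interval -1.38 to 0.24, adjusted p 0.369), although its groups did not overlap. The fit pools the spread of all 4 groups, so this standard error also draws on the 6-week arrays. The SD of Nat8f5 was 0.87 in WT 6 weeks, against 0.05 in KO 12 weeks and 0.42 in WT 12 weeks. Without replicate 1 of WT 6 weeks its limma adjusted p was 0.146, the lowest under any alternative, and it still did not pass. Nat8 differed by -0.21 ± 0.19 (95% interval -0.62 to 0.21, adjusted p 0.535).

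Nat8f1, the steadiest member, differed by -0.14 ± 0.08 at 12 weeks (95% interval -0.33 to 0.05, adjusted p 0.337). Nat8f2 differed by 0.19 ± 0.15 (95% interval -0.15 to 0.52, adjusted p 0.479). The 12-week intervals of Nat8 and Nat8f5 do not hold the differences seen in young livers. Those differences belong to the comparison that chose the family, so no contrast of ages is read from this. On slide 2 alone, with 3 knockout and 2 wild type arrays, the limma differences at 12 weeks were -0.35 for Nat8f5, -0.10 for Nat8, -0.19 for Nat8f1 and 0.34 for Nat8f2. None of them passed there either. The median difference of the 4 members was -0.17 and that of all genes 0.01.

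At 6 weeks the knockout minus wild type difference was 4.26 ± 0.36 for Nat8f5, a 19.2-fold higher signal in the knockout. It was 2.73 ± 0.19 for Nat8, a 6.63-fold higher signal. It was 0.04 ± 0.08 for Nat8f1 and -0.01 ± 0.15 for Nat8f2. The 2 variable members passed the test and both were higher, in a comparison that called 11.7% of all genes as higher and 9.34% as lower. When slide was added to the model as a block, which rests on replicate 1 of WT 12 weeks, the difference was 4.91 for Nat8f5 and 3.06 for Nat8. In that fit it was 0.44 for Nat8f2 and -0.12 for Nat8f1, and neither passed. The 6-week difference of Nat8f2 thus depended on how the slide was handled.

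In wild type livers the 12-week level exceeded the 6-week level by 4.02 ± 0.19 for Nat8 (16.2-fold) and by 3.72 ± 0.36 for Nat8f5 (13.2-fold). The age difference in wild type was 0.02 ± 0.08 for Nat8f1 and -0.12 ± 0.15 for Nat8f2. With the slide as a block it was -0.09 for Nat8f1 and 0.18 for Nat8f2. The 2 called members stand beside 9.04% of all genes called. The array of WT 12 weeks that shares slide 1 with the WT 6 weeks arrays had 4.92 for Nat8 and 3.84 for Nat8f5, the highest WT 12 weeks value for each. On slide 1 alone the differences were 4.24 for Nat8 and 4.16 for Nat8f5. Both genes thus had higher levels on the 1 array of 12 weeks than on the 3 of 6 weeks within that slide.

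In knockout livers the 2 variable members went opposite ways with age. The 12-week minus 6-week difference was 1.08 ± 0.19 for Nat8 (2.12-fold higher at 12 weeks) and -1.10 ± 0.36 for Nat8f5 (2.15-fold lower), and for both the groups did not overlap. It was -0.16 ± 0.08 for Nat8f1 and 0.08 ± 0.15 for Nat8f2. Nat8 alone passed the test, in a comparison that called 6.91% of all genes. Nat8f5 did not pass, but it passed on slide 2 alone, which holds all 6 knockout arrays, with a difference of -1.10. The comparisons of age share arrays with those of genotype, so their values are set side by side and not correlated.

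**Figure D2:**
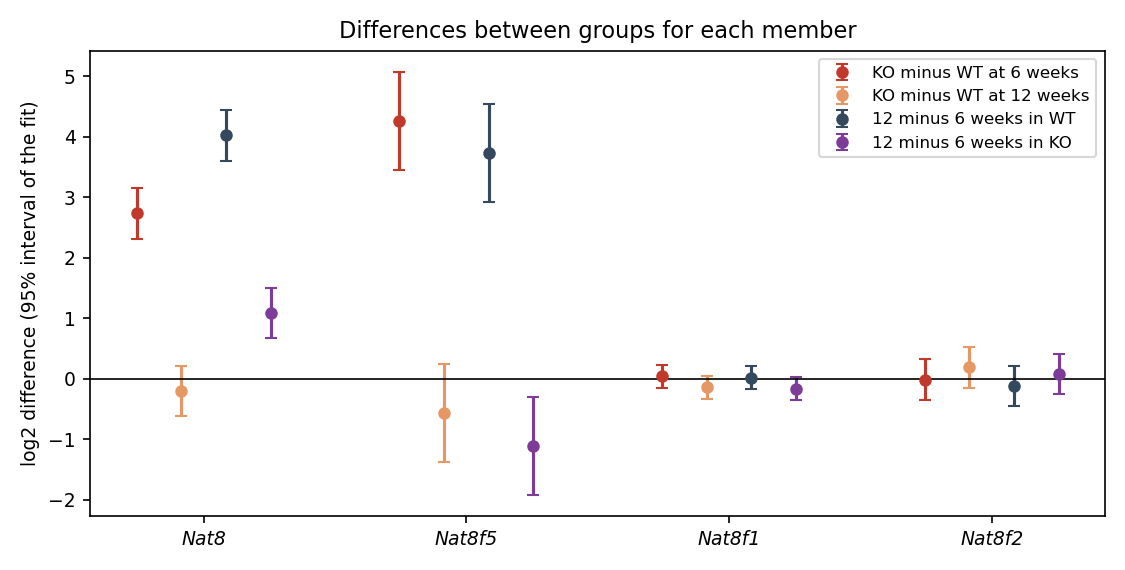
Log2 difference (y axis) of each family gene in the 4 comparisons, with the 95% interval of the limma fit, 3 arrays per group. For Nat8 and Nat8f5 the difference at 6 weeks and the age difference in wild type lie far above 0, the difference at 12 weeks has an interval that holds 0, and the age difference in knockout is positive for Nat8 and negative for Nat8f5.

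Other genes of the family were on the array outside the names searched. Nat8f6 has the probe nearest to Nat8f5, 8.79 kb away, and that probe's annotation also lists Nat8f3, so the 2 genes cannot be told apart. It was dim, well above background on 3 arrays of KO 6 weeks, 0 of WT 6 weeks, 2 of KO 12 weeks and 1 of WT 12 weeks. It could be tested only because of the KO 6 weeks arrays, so its difference at 6 weeks follows in part from the filter. In KO 6 weeks it was at least 3.27-fold higher than in WT 6 weeks, whose arrays all lay on slide 1, from a mean level of -3.78 in KO 6 weeks against -6.36 in WT 6 weeks. For such a bound, the brighter group's mean was set against a floor for the dimmer one: each of its arrays entered with the lowest signal that still counted as well above background, or with the probe's own signal if higher, and these were averaged. With the slide as a block the fitted log2 difference at 6 weeks was 1.41, below that bound, and did not pass. At 12 weeks its levels were -4.24, -4.25 and -5.07 in KO 12 weeks, against -4.46, -1.49 and -5.09 in WT 12 weeks. The 1 high array set the mean of WT 12 weeks, and no fold with age is given.

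Nat8b-ps, annotated as a pseudogene, had levels of 2.86, 2.92 and 2.79 in KO 12 weeks, against 3.60, 3.17 and 3.19 in WT 12 weeks. It was lower in the 12-week knockout by a limma difference of -0.46 ± 0.12 (adjusted p 0.0384), and at 6 weeks the difference was -0.64 ± 0.12, which shrank to -0.22 and did not pass with the slide as a block. Its levels were 3.58 to 3.82 on the 4 arrays of slide 1 and 2.79 to 3.19 on the 8 of slide 2, with no overlap. On slide 2 alone the 12-week difference was -0.32 (limma, adjusted p 0.0707), so the call was lost there.

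Nat8f4 had levels of -0.91, -1.51 and -1.30 in KO 6 weeks, against -0.33, -0.77 and -0.72 in WT 6 weeks. It had -0.73, -0.66 and -0.82 in KO 12 weeks, against -1.15, -1.24 and -1.14 in WT 12 weeks. Its difference was -0.64 ± 0.15 at 6 weeks and 0.44 ± 0.15 at 12 weeks (limma, adjusted p 0.110), with no overlap between genotypes at either age. With the slide as a block it was -0.59 at 6 weeks and 0.45 at 12 weeks, and neither passed. The Nat8f4 probe lies between those of Nat8f2 and Nat8f1, and its mean level was highest in WT 6 weeks. Nat8l, which makes N-acetylaspartate in brain and lies on chromosome 5, was well above background on 0 of 12 arrays.

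The neighbourhood was described from every gene with a probe within 1 Mb of a member probe, of which 41 of 59 were measured. At 12 weeks 1 of the 41 was higher and 0 lower, where 5.65% of all genes were higher and 2.56% lower. It was Fam136a, which differed by 0.48 ± 0.07 (limma, adjusted p 0.00561) and by 0.50 on slide 2 alone (limma, adjusted p 0.0327). At 6 weeks 6 were higher and 2 lower, beside 11.7% and 9.34% of all genes. With the slide as a block 0 of the 41 passed at 6 weeks with limma in either direction, and 8 had an unadjusted p under 0.05. That fit called only 2.64% of all genes. At 12 weeks it called 2 of the 41 higher and 0 lower, beside 5.78% of all genes in either direction, and 7 had an unadjusted p under 0.05. Among those higher at 6 weeks were Tia1, an RNA-binding protein of stress granules, at 0.66 (0.78 with the block), and Tgfa, a ligand of the EGF receptor, at 0.29 (0.44 with the block). The differences of the 8 at 6 weeks ran from -0.95 to 0.66, smaller in size than those of Nat8 and Nat8f5.

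**Figure D3:**
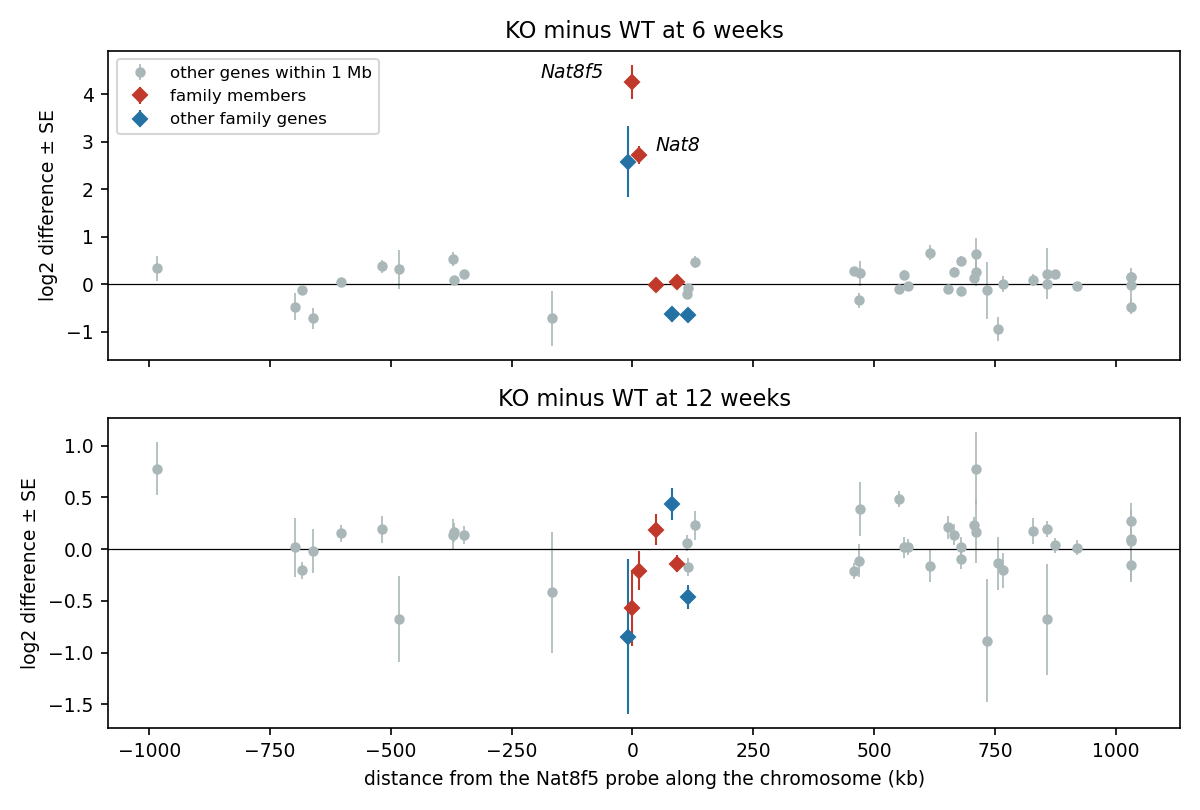
Log2 difference between knockout and wild type ± SE (y axis, different scales) against distance from the Nat8f5 probe (x axis, kb), at 6 weeks above and 12 weeks below. Red diamonds are the 4 members, blue diamonds Nat8f6, Nat8f4 and Nat8b-ps, and grey points the other genes measured within 1 Mb. At 6 weeks Nat8f5, Nat8 and the dim Nat8f6 probe stand above the grey points, which lie between -0.95 and 0.66, and the fitted value of Nat8f6 includes arrays not above background.

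Promoter sequences of the family were compared because the members that vary and those that do not lie next to each other. The RefSeq table (GRCm38.p6) held 10 windows of 300 bases, from 250 before to 50 after a start, for 8 family genes, of which Nat8 and Nat8f4 had a pair each. Among the 45 pairs of windows, 2 were near copies over most of their length. The upstream start of Nat8 matched Nat8f3 at 203 of 207 aligned positions, and Nat8f6 matched Nat8f7 at 286 of 292. The next longest match joined variable Nat8f5 and steady Nat8f2, 58 of 70 positions (82.9%). The 2 stretches are shown with a shared CCAAT box in capitals, for Nat8f5 at chr6:85821010-85821079 (bases -107 to -38 from its start) and for Nat8f2 at chr6:85869133-85869202 (bases -65 to 5), both on the minus strand.
Nat8f5 promoter: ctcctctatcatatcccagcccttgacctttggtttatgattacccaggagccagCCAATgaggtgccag
Nat8f2 promoter: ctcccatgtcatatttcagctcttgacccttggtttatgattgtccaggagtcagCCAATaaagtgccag
These similar stretches thus precede a gene whose group means span 4.26 log2 units and one whose group means span 0.19. Nat8 and Nat8f5, which were both low in WT 6 weeks, shared a stretch of 27 of 32 positions at the downstream start of Nat8, and 25 of 31 at its upstream start.

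Motifs were searched on both strands, and a match describes letters only. CCAAT, a general promoter element, was in 6 of the 10 family windows and in 37.4% of 32851 mouse promoter windows. It was searched for after the sequences had been read. TATAAA was in 3 of 10 (13.62% of all windows), namely those of Nat8f6, Nat8f7 and the downstream start of Nat8f4. TGACNNNGC, the antioxidant response element bound by NRF2, was in 1 of 10, the downstream start of Nat8f4 (12.4% of all windows).

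TTCNNNGAA, the form bound by STAT proteins, was in 0 of 10 windows and 8.30% of all. The other motifs in 0 of 10 were ATTGAT (HNF6, 7.54% of all windows), CACGTG (the E-box of clock factors, 7.15%), TTATGTAA (the D-box, 0.938%) and TTGCGCAA (C/EBP, 0.183%). ATTGAT shares 4 letters with the reverse complement of CCAAT, and no match of one motif overlapped a match of another. No match means only that these letters are not in the window.

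The pathway that leads to mercapturates was described from 21 genes, of which 18 were measured. Ggt1, Ggt7 and Dpep2 were not. At 12 weeks 4 of the 18 were lower and 1 higher, beside 2.56% of all genes lower and 5.65% higher, and the median difference was -0.09, against 0.01 over all genes. Of the 4 lower genes, 3 (Gclc, Gclm and Gss) make glutathione, the substrate of the pathway. Gclc, the catalytic subunit of glutamate-cysteine ligase, had a level of 5.62 ± 0.10 in KO 12 weeks and 6.41 ± 0.11 in WT 12 weeks (SD, n = 3 each). Its limma difference was -0.79 ± 0.10 (adjusted p 0.0024).

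Gss, glutathione synthetase, differed by -0.58 ± 0.09 (limma, adjusted p 0.00666). Gclm, the modifier subunit of the ligase, differed by -0.32 ± 0.07 (limma, adjusted p 0.0186). Cndp2, a dipeptidase that can split cysteinylglycine, differed by -0.41 ± 0.10 (limma, adjusted p 0.0394). Acy1, an aminoacylase that takes acetyl groups off N-acetylated amino acids and so works against the acetyltransferase step, was higher by 0.46 ± 0.12 (limma, adjusted p 0.0487). On slide 2 alone Gclc (-0.83, limma adjusted p 0.0183) and Gss (-0.65, limma adjusted p 0.0255) still passed. There Gclm (limma adjusted p 0.0552), Acy1 (limma adjusted p 0.0517) and Cndp2 (limma adjusted p 0.153) did not. With the slide as a block Gclm passed (-0.34, limma adjusted p 0.0296), as Gclc and Gss did, and Acy1 and Cndp2 did not. That fit called 3 of the 18 lower and 0 higher at 12 weeks, beside 5.78% of all genes called in either direction.

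At 6 weeks 4 of the 18 pathway genes were higher and 2 lower, beside 11.7% and 9.34% of all genes, and the median difference was 0.07. With the slide as a block 0 of the 18 passed at 6 weeks with limma, where only 2.64% of all genes did. Of the 18, 3 had an unadjusted p under 0.05, and the median was -0.10. The higher ones with the smallest p were Gclc (0.64 ± 0.10), Kyat1, a cysteine-conjugate beta-lyase (0.41 ± 0.12), and Lap3, an aminopeptidase (0.26 ± 0.08). The lower ones were Acy1 (-0.65 ± 0.12) and Gclm (-0.25 ± 0.07). With the block the values were 0.53 for Gclc, 0.22 for Kyat1, 0.21 for Lap3, -0.50 for Acy1 and -0.29 for Gclm. A list of genes linked to acetylation in the endoplasmic reticulum had 3 measured genes, Slc33a1, Bace1 and Atg9a. Of these, 0 passed at 12 weeks with limma, where 8.20% of all genes did. Of the 3, 1 had an unadjusted p under 0.05. That gene, Bace1, a protease, differed by -0.28 ± 0.08 and was called lower with the slide as a block (-0.34, limma adjusted p 0.0381). On slide 2 alone Bace1 did not pass (-0.34, limma adjusted p 0.0720). Slc33a1, the transporter that brings acetyl-CoA into that compartment, differed by 0.06 ± 0.10 at 12 weeks (limma, adjusted p 0.736) and by 0.50 ± 0.10 at 6 weeks (0.48 with the block, not passing). Of 14 measured genes of other N-acetyltransferases, 3 were higher and 1 lower at 12 weeks, beside 5.65% and 2.56% of all genes. At 6 weeks 1 was higher and 0 lower, beside 11.7% and 9.34%. With the slide as a block 0 were higher and 1 lower at 12 weeks, where 5.78% of all genes were called. At 6 weeks 0 passed with limma and the block, where 2.64% of all genes did, and 1 had an unadjusted p under 0.05.

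The genes with levels most like a member's over the 12 arrays were found by Pearson's r, as a description of arrays that share groups and slides. For Nat8 they were Gabpb1 (0.981), Cdkn2b (0.976) and Serpine2 (0.974). For Nat8f5 the most alike included Gstp1, Zfand4, Mep1b, Gmeb2, Fbxo44, Traf3ip2, C6, Crybg3 and Hsd3b5, with r between 0.971 and 0.947. The r of Nat8f5 with Nat8 was 0.854, below all of these. Gstp1, a glutathione transferase, differed by 1.39 at 6 weeks and -0.30 at 12 weeks. Hsd3b5 and C6 are known for higher expression in male than in female mouse liver. They differed by 2.83 and 3.71 at 6 weeks, and by 0.03 and -0.03 at 12 weeks.

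The steady members had less similar partners. For Nat8f2 they were Rasl10b (0.892), Ccdc88a (0.866) and Xylt1 (0.861). For Nat8f1 they were Gnpda2 (0.911), Acsm1 (0.900) and ND6 (0.899). These r values rest on ranges of under 1 log2 unit of the members themselves.

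At 6 weeks most male-biased liver genes measured differed in the direction of the variable members, and most female-biased genes in the opposite direction. Of 13 male-biased genes measured, 11 were higher and 0 lower at 6 weeks, where 11.7% of all genes were higher and 9.34% lower. With limma 0 passed in either direction at 12 weeks, where 8.20% of all genes did, and 3 had an unadjusted p under 0.05. Their summed level was 2866 to 3256 times the 75th percentile in KO 6 weeks, against 1712 to 1986 in WT 6 weeks. It was 2555 to 2876 in KO 12 weeks, against 2602 to 2925 in WT 12 weeks. Of 11 female-biased genes measured, 0 were higher and 10 lower at 6 weeks. At 12 weeks 0 were higher and 2 lower, beside 5.65% and 2.56% of all genes. Sult3a1, Hao2, Cyp2b13, Cyp2b9 and Cyp3a44 could be tested only because of the WT 6 weeks arrays. Serpina12, a male-biased gene, was well above background on 0 arrays of WT 6 weeks and on all arrays of the other groups. The 6-week differences of these genes follow in part from the filter. With the slide as a block 8 male-biased genes were higher and 5 female-biased genes lower at 6 weeks. That fit called 2.64% of all genes in either direction at 6 weeks and 5.78% at 12 weeks. In it 0 of either list passed at 12 weeks with limma, with 2 and 3 at an unadjusted p under 0.05. Of the Y-linked genes, Ddx3y, Eif2s3y and Uty were well above background on all 12 arrays and Kdm5d on 0, and Xist was well above background on 0 of 12. No group thus differed in which sex-linked genes were detected. The part of the sex-biased genes' change in that of Nat8 and Nat8f5 was not tested.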

How the data were processed

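Liver RNA of 12 mice was measured on 1-colour arrays. Per the file headers, the authors made the processed signal, an intensity, with Agilent Feature Extraction 10.7.3.1, which subtracts background, replaces low values by surrogates and does not scale between arrays. The mean intensity and local background median were deposited by the authors unprocessed, and served an alternative. The deposited value table holds the processed intensity, rounded. Its scale is linear, it is not centred and has no direction.

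Control and outlier spots were left out. The level was log2 of the processed intensity minus the array's 75th percentile. Probes were tested if every array of some group showed them well above background (29820 of 55681), and the brightest probe of a gene was kept. Symbols came from RefSeq (26576 probes by accession, 2607 already current, 492 by synonym). Group means were fitted with limma 3.58.1 in R 4.3.3, tested on simulated data. The p-values rest on a spread between replicate arrays that is pooled over the 4 groups of 3 and drawn by limma towards that of all genes. It is not the spread of the compared groups alone.

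Named genes were all members, passing pathway genes and neighbours at 12 weeks, up to 3 of each per direction at 6 weeks, and the most alike genes, of which 1 is not reported here. Other genes were named after their values were seen, and so were the relatives outside the names searched. Members and lists were chosen with earlier results of these data known. Same-numbered replicates did not deviate together (18 pairs, r -0.09 to 0.18), so no pairing was used. Alternatives covered background, normalization, filter, probe choice, slide, replicate block, source table and left-out arrays.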

Additional observations from a re-analysis of the deposited data

Results flagged for a closer look

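The genotype differences of Nat8f5, Nat8 and Nat8f4 are set out by age because their size was not alike at 6 and 12 weeks. The quantity is the knockout minus wild type difference at 12 weeks minus that at 6 weeks, an interaction of the limma fit. It was -4.83 ± 0.51 for Nat8f5, whose differences were -0.57 at 12 weeks and 4.26 at 6 weeks. It was -2.94 ± 0.26 for Nat8, with -0.21 at 12 weeks and 2.73 at 6 weeks. It was 1.08 ± 0.22 for Nat8f4, with 0.44 at 12 weeks and -0.64 at 6 weeks. Neither of these Nat8f4 differences passed with the slide as a block. These values use the 6-week arrays whose large difference chose the family, so they are a description and no evidence that the ages differ. Groups of 3 arrays are too small for a check of single outlying arrays.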

How the results depend on the processing

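Single members had 364 values under 22 or 23 alternatives per comparison. Of these, 356 stayed within the replicate spread or kept their call, and 8 moved. None went from a call in one direction to a call in the other. A value within the spread could still gain a call, as Nat8f5 did for age in KO. The member count stayed at 2 for the genotypes at 6 weeks and at 0 for the genotypes at 12 weeks under every alternative run. For 12 minus 6 weeks in WT it was 2, and 1 on slide 1 alone, a setting chosen after seeing the data (Nat8f5 was not called there), with only 1 array of 12 weeks, assumed to vary like the others. For 12 minus 6 weeks in KO it was 1, and 2 with normexp background, on slide 2 alone and without replicate 1 of WT 6 weeks. Leaving out each array in turn gave 2 to 2 at 6 weeks, 0 to 0 at 12 weeks, 2 to 2 for age in WT and 1 to 2 for age in KO. In each case the added member was Nat8f5. With the replicate number as a block, which the arrays did not bear out as a pairing, the count for age in KO was also 2, and the other counts did not change.

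Slide 2 alone was not run for the genotypes at 6 weeks or for age in WT, since a group had no array there. The count of all genes called moved by over 1.5 times in several settings. For the genotypes at 6 weeks it was 4661, and 585 with the slide as a fixed block, 1228 as a random block, and 2613 to 3027 without any 1 array of WT 6 weeks or without replicate 1 or 2 of KO 6 weeks. For the genotypes at 12 weeks it was 1816, and 825 without a filter, 748 on slide 2 alone, and 683 to 1023 without any 1 array of KO 12 weeks. For age in WT it was 2001, and 1230 without a filter, 728 and 1080 with the slide as a fixed and a random block, 288 on slide 1 alone, 1058 to 1156 without any 1 array of WT 6 weeks, and 3904 and 988 without replicate 1 and 2 of WT 12 weeks. For age in KO it was 1530, and 730 without a filter, 805 to 843 without any 1 array of KO 6 weeks and 612 to 907 without any 1 array of KO 12 weeks. The cause of these moves was not tested.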
